A study of Mus musculus with 12 samples.

Results

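The genes described are Lef1, the Tcf factors and a set of Wnt targets in the mouse lung tumour line A2C12. The 10 genes are Lef1, Tcf7, Tcf7l1 and Tcf7l2, which encode the DNA-binding factors of the pathway, Ctnnb1, which encodes beta-catenin, the receptor gene Fzd7, the feedback inhibitors Axin2 and Nkd1, and the targets Sox9 and Ccnd1. The genes were chosen by symbol, with a lower Lef1 level in antibody-treated cells already known, so their antibody values are given as a description. Of the 10 genes, 9 had at least 1 probe set that the array's annotation pairs with that symbol alone, which gave 25 of the 45101 probe sets. Tcf7 had none and has no value here. For each gene the probe set with the highest mean over all 12 arrays, called its lead probe set, stood for the gene among 18194 genes tested.

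A2C12 comes from a lung tumour of a double transgenic mouse (c-myc/c-raf; background strain C57BL/6) and is 1 line, so the 3 biological replicates of each group are not separate tumours. The sources used here do not name the promoters of the transgenes. The 4 groups of 3 arrays each were SP cells with anti-EpCAM, SP cells without treatment, non-SP cells with anti-EpCAM and non-SP cells without treatment. Treated cells received a monoclonal antibody against mouse EpCAM, an epithelial adhesion protein, at 100 µg/ml for 48 h, and the labels name no control antibody for the untreated cells. All cells were stained with the DNA dye Hoechst at 5 µg/ml for 90 min and sorted into the side population (SP), which keeps little dye because membrane pumps expel it, and the remaining non-SP cells.

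In the absence of a Wnt signal, a destruction complex that contains axin removes beta-catenin. Once a Wnt ligand binds a Frizzled receptor such as that encoded by Fzd7, beta-catenin accumulates, enters the nucleus and joins a LEF or TCF protein on target genes. Axin2 and Nkd1 are targets whose products dampen the pathway. EpCAM is linked to these factors through its intracellular domain, which can be cut off by proteases and was found together with FHL2, beta-catenin and Lef-1 in human carcinoma cells.

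LEF and TCF proteins bind a short DNA word written on either strand. The promoters of the members were therefore searched for the letters CTTTGAA and CTTTGAT or CTTTGTA and CTTTGTT. The search covered the 250 bases before each start in the promoter set used. RefSeq promoters (GRCm38.p6) were at hand for 8 of the 10 genes, with 14 starts among them, and Sox9 and Ccnd1 had no entry. A word stood in 3 of these 14 windows, or 21.4%, against 14.8% of all 32851 promoters. The matches lay before Fzd7, before the second start of Tcf7l2 and before the last start of Lef1. The other 3 Lef1 starts and the Axin2 start in this set held none. The Axin2 window begins at 108920099 and the Nkd1 window at 88527383, inside genes annotated from 108917828 and 88521342. Bases before those 2 gene starts were not searched. The stretches around the 3 matches are shown with the word in capitals, and the last bases before the first Lef1 start and the Axin2 start are shown beside them for comparison, since Lef1 and Axin2 are described in most detail. All stretches are on the plus strand of the chromosome, which is the coding strand of each of these genes.
Fzd7, chr1:59481990-59482050: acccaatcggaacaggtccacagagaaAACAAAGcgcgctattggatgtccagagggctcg
Lef1, last start, chr3:131156120-131156180: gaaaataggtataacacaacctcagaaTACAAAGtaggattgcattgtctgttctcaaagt
Tcf7l2, second start, chr19:55895280-55895320: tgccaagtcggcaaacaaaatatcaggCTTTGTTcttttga
Lef1, first start, chr3:131110237-131110296: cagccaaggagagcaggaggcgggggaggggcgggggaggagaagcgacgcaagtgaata
Axin2, chr11:108920289-108920348: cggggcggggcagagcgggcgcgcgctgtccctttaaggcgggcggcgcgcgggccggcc
In Fzd7 and Lef1 the word runs on the opposite strand, so its reverse complement is what the line shows, and it begins 130 bases before the Fzd7 start and 147 bases before the last Lef1 start. A match is a description of letters and was not measured as binding.

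Values are log2 signals as deposited, and the array median ran from 5.72 to 6.06 among the 12 arrays. With 3 arrays in a group, the median 95% interval of a difference reached 0.46 log2 units to either side. No gene passed an adjusted p of 0.05 (limma, Benjamini-Hochberg over 18194 genes) in any of 7 comparisons, so the share called was 0% throughout and no member was called. At an unadjusted p under 0.05 the comparisons gave 835 genes for the antibody in SP cells, 585 for the antibody in non-SP cells, 127 for SP against non-SP cells with antibody and 4 for SP against non-SP cells without treatment. These fits did not pair same-numbered arrays. With a replicate block, described at the end, each of these counts was higher. Most genes read lower in treated cells, 78.4% of them in SP and 70.9% in non-SP cells. The median difference over all genes was -0.12 in SP and -0.10 in non-SP cells. Signals of the epithelial markers Epcam and Krt8 averaged 8.11 and 8.77, above the array medians, as was the surfactant gene Sftpb at 7.44, whereas the lung markers Nkx2-1, Sftpc and Sftpa1 averaged 5.55, 5.64 and 5.04, below them. The fibroblast markers Col1a1 and Col1a2 averaged 11.5 and 12.6. Of the T cell markers, which matter here because T cells use Lef1 and Tcf7, 5 of 6 were measured. Their mean level per array ran from 5.62 to 5.82 in SP anti-EpCAM, 5.85 to 6.10 in SP untreated, 5.76 to 6.06 in non-SP anti-EpCAM and 5.86 to 5.95 in non-SP untreated arrays. By gene, Cd3g averaged 3.67 and Cd3d 5.21, below the array medians, and Cd3e, Cd4 and Cd8a averaged 6.76, 6.82 and 6.90, above them. Of the macrophage markers, Ptprc and Adgre1 averaged 3.42 and 4.67, and Cd68 and Csf1r 7.33 and 9.98. The means of the T cell and endothelial lists were lower in every treated than in every untreated SP array. Endothelial means were 5.02 to 5.26 in SP anti-EpCAM and 5.30 to 5.73 in SP untreated arrays. As single genes, 8.04% of all genes separated in this way. The median difference in SP cells was -0.10 in the T cell list, against -0.12 for all genes, with 3 of 5 genes above the latter. In the endothelial list it was -0.42, with 1 of 3 genes above. The part of both lists in the Lef1 values was not tested. In non-SP cells both lists overlapped between treatments.

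Lef1, the factor for which the list was drawn up, was read as a weak signal, with a mean of 5.11 in its lead probe set, below the median of every array. In SP cells it read 4.70, 4.99 and 4.66 with anti-EpCAM and 5.38, 5.34 and 5.55 without treatment. In non-SP cells it read 5.02, 5.03 and 4.54 with anti-EpCAM and 5.39, 5.25 and 5.46 without treatment. Every treated array lay below every untreated array of its fraction.

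The Lef1 difference between treated and untreated cells was -0.64 ± 0.17 (SE) in SP and -0.50 ± 0.17 (SE) in non-SP cells, that is 1.56-fold and 1.42-fold lower. Relative to the median of all genes the differences were -0.52 and -0.40. A complete separation of the groups with treated arrays lower was also seen in 8.04% of all genes in SP and 6.62% in non-SP cells. When the arrays of both fractions that share a replicate number and treatment, called a culture here, were averaged, the treated cultures stood at 4.86, 5.01 and 4.60 and the untreated cultures at 5.38, 5.29 and 5.50, a difference of -0.57 ± 0.17 (SE). In that comparison 6.95% of genes separated in the same direction. That same-numbered arrays of both fractions come from the same culture is not stated in the labels. Because Lef1 was selected on this contrast, none of these values is a test. Without non-SP anti-EpCAM replicate 3, whose 4.54 is the lowest Lef1 reading, the non-SP difference was -0.34, and leaving out any other single array kept it between -0.59 and -0.46.

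The second Lef1 probe set gave a different picture. It averaged only 3.75. In SP cells it read 3.52, 3.61 and 3.73 with anti-EpCAM and 3.88, 3.96 and 3.80 without treatment, lower in all treated arrays by a difference of -0.26 ± 0.16 (SE). The non-SP readings were 3.85, 4.10 and 3.68 with anti-EpCAM and 3.66, 3.52 and 3.66 without treatment. They were higher in all treated arrays by 0.27 ± 0.16 (SE), a separation found in 1.19% of all genes by their lead probe sets. The antibody difference in SP minus that in non-SP cells was -0.53 ± 0.22 (SE) for this probe set. Its unadjusted p was 0.0314 and its adjusted p 1 (limma without replicate pairing, adjusted over all probe sets that are not controls). The lead probe set gave -0.14 ± 0.24 (SE). After arrays were centred on their medians, the 2 probe sets correlated at -0.21 over the 12 arrays, some of which may share a culture. With both averaged, Lef1 differed by -0.45 in SP and -0.12 in non-SP cells. The annotation names a source sequence for each probe set, and which of the transcripts of Lef1 each probe set reads was not examined.

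**Figure D1:**
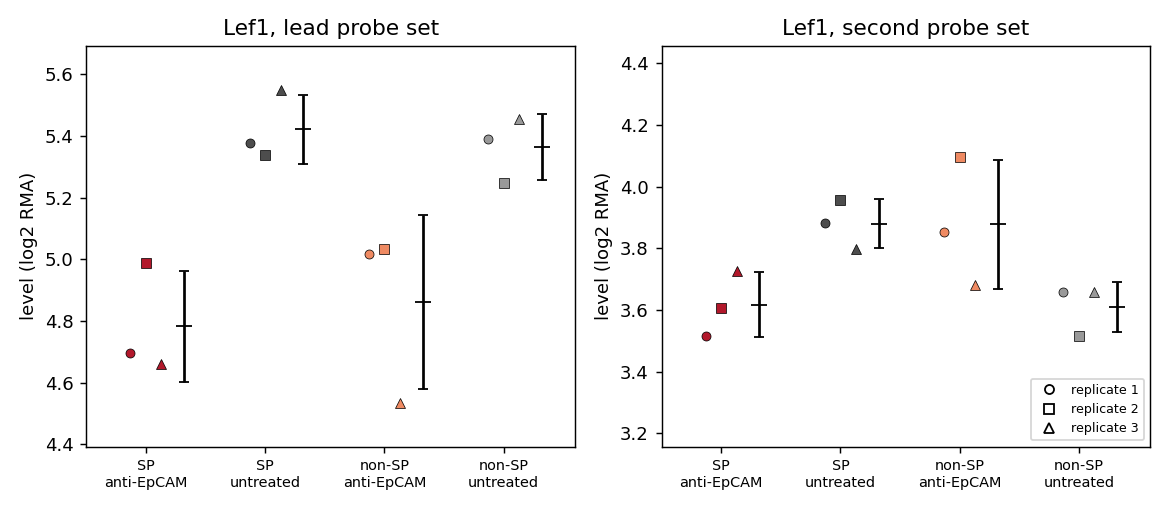
Lef1 level (log2 RMA signal, y axis) on each array of the 4 groups, for the lead probe set (left) and the second probe set (right); marker shapes are replicate numbers and bars are the group mean ± SD (n = 3). In the lead probe set every treated array lies below every untreated array of its fraction, as for 8.04% of all genes in SP and 6.62% in non-SP cells. In the second probe set the treated arrays are lower in SP and higher in non-SP cells.

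Between fractions the Lef1 lead probe set showed no direction. SP minus non-SP within a culture was -0.32, -0.04 and 0.13 with anti-EpCAM and -0.01, 0.09 and 0.09 without treatment, 3 lower and 3 higher. The mean over the 6 cultures was -0.01 with a 95% interval from -0.18 to 0.16 (adjusted p = 0.988, limma). The choice of genes by symbol did not use the fraction contrasts, but earlier results of these data were known. In this contrast 388 of all genes had an unadjusted p under 0.05 (limma), while 0% were called.

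Among genes with a mean signal of at least 6, 10826 were set against the Lef1 lead probe set over the 12 arrays after each array was centred on its median. Most like it were Tes3-ps, with a Pearson r of 0.80 and a Spearman rho of 0.66, Amh at 0.79 and 0.73, Celf3 at 0.79 and 0.54, Nmnat3 at 0.78 and 0.80 and Cela3b at 0.77 and 0.75. Most opposed were the transcription factor genes Six5, with an r of -0.90 and a rho of -0.89, Sox3 at -0.90 and -0.92 and Snai3 at -0.88 and -0.94. With the group means removed, r was 0.86 for Tes3-ps and 0.44 for Amh, and -0.70 for Six5. The other members had an r with Lef1 from -0.43 for Sox9 to 0.02 for Ctnnb1. With the group means removed, theirs ran from -0.70 for Fzd7 to 0.52 for Ctnnb1. The arrays share treatments, same-numbered arrays of both fractions may share a culture, and the genes were picked as extremes of 10826.

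Tcf7l1 and Tcf7l2, the other measured factors, both gave group ranges that overlapped. Tcf7l1, which often acts as a repressor of targets, read 9.47, 8.94 and 9.35 in SP cells with anti-EpCAM and 9.19, 9.66 and 9.58 in SP cells without treatment. Among non-SP arrays the values were 9.42, 9.09 and 9.38 with anti-EpCAM and 9.40, 9.79 and 9.37 without treatment. The antibody difference was -0.22 ± 0.20 (SE) in SP and -0.22 ± 0.20 (SE) in non-SP cells, about the size of its standard error. Its other probe set, with a mean of 8.83, correlated with the lead at 0.72 and differed by 0.11 in SP and -0.23 in non-SP cells.

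Tcf7l2, which encodes TCF-4, was the most variable member, with lead values spread over 1.71 log2 units. It read 7.90, 6.55 and 7.42 in SP cells with anti-EpCAM and 7.20, 7.34 and 7.25 in SP cells without treatment. Non-SP cells gave 7.64, 6.19 and 7.35 with anti-EpCAM and 7.53, 7.30 and 7.45 without treatment. Untreated arrays were close together, and the spread of treated arrays came from replicate 2 of both fractions. The antibody difference was 0.03 ± 0.36 (SE) in SP and -0.37 ± 0.36 (SE) in non-SP cells.

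The probe sets of Tcf7l2 did not run together. One with a mean of 4.94, whose name marks it as shared with other transcripts, correlated with the lead at 0.79. It was lower in all treated non-SP arrays, by -0.77 ± 0.32 (SE), with an adjusted p of 0.970 (limma). Such a separation was seen in 6.62% of all genes by their lead probe sets. A further Tcf7l2 probe set with a mean of 4.85 correlated with the lead at -0.83. That probe set was highest, at 5.70, in the array where the lead was lowest. The remaining one, with a mean of 4.13, correlated at 0.16.

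Treated replicate 2 also stood apart in other members. For Fzd7 its arrays read 10.26 in SP and 10.12 in non-SP cells, against at least 10.70 in the other 10 arrays. For Tcf7l1 they read 8.94 and 9.09, against at least 9.19. Of the 9 lead probe sets, these 3 had both arrays below all others, and the same held for 15.9% of all genes, with 3.12% showing both above. On the array's quality probes, the signal at the 3' end of the actin transcript exceeded that at the 5' end by 1.03 in the SP and 0.895 in the non-SP array of treated replicate 2, against at most 0.733 in the other 10, and for Gapdh by 0.50 and 0.46, against at most 0.23. The part of this in the members' values was not tested. Without both arrays, an alternative added after the data were seen, the antibody differences in SP and non-SP cells were 0.40 and 0.07 for Tcf7l2, 0.26 and 0.09 for Fzd7 and -0.74 and -0.59 for Lef1.

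**Figure D2:**
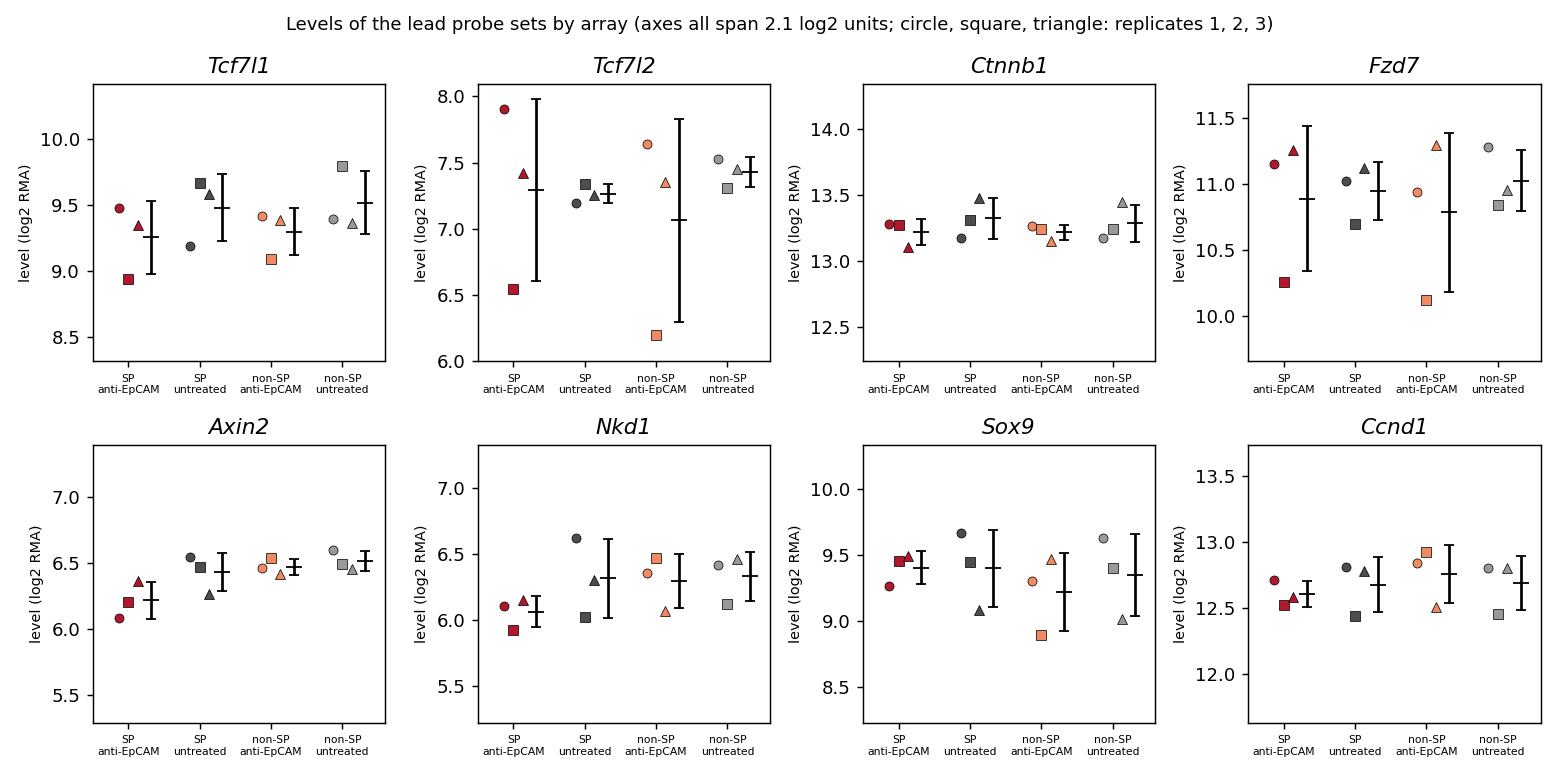
Level (log2 RMA signal, y axis) of the lead probe set of the other 8 members on each array of the 4 groups; marker shapes are replicate numbers and bars are the group mean ± SD (n = 3). Replicate 2 of the treated cells (squares) is the lowest array for Tcf7l2 and Fzd7 in both fractions, at 6.55 and 6.19 and at 10.26 and 10.12.

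Ctnnb1 had the steadiest lead probe set of the members, with values spread over 0.37 log2 units. It read 13.28, 13.27 and 13.10 in SP cells with anti-EpCAM and 13.17, 13.31 and 13.48 in SP cells without treatment. In non-SP cells it read 13.26, 13.24 and 13.15 with anti-EpCAM and 13.17, 13.24 and 13.44 without treatment. All 4 groups overlapped, and the antibody difference was -0.10 ± 0.15 (SE) in SP and -0.07 ± 0.15 (SE) in non-SP cells. The lead signal averaged 13.26, and the highest value of any probe set on these arrays was 14.74. The other Ctnnb1 probe sets, with means of 10.97 and 8.29, differed by -0.33 and -0.37 in SP and by -0.30 and -0.12 in non-SP cells. They followed the lead over the 12 arrays at 0.75 and 0.71, and their values spread more widely, over 0.79 and 0.92 log2 units.

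Fzd7, a Frizzled receptor, read 11.15, 10.26 and 11.25 in SP cells with anti-EpCAM and 11.02, 10.70 and 11.12 in SP cells without treatment. The non-SP readings were 10.94, 10.12 and 11.29 with anti-EpCAM and 11.28, 10.84 and 10.95 without treatment. The groups overlapped, with antibody differences of -0.06 ± 0.31 (SE) in SP and -0.24 ± 0.31 (SE) in non-SP cells. Its dimmer probe set, at a mean of 6.08, differed by -0.40 and -0.32 and followed the lead only loosely, at 0.35.

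Axin2 is the feedback inhibitor most often read as a reporter of the pathway. In its lead probe set no difference between fractions passed the threshold, and no antibody difference separated treated from untreated arrays. In SP cells it read 6.09, 6.21 and 6.36 with anti-EpCAM and 6.55, 6.47 and 6.27 without treatment. Among non-SP arrays the values were 6.46, 6.53 and 6.42 with anti-EpCAM and 6.60, 6.49 and 6.45 without treatment. The antibody difference was -0.21 ± 0.14 (SE) in SP and -0.04 ± 0.14 (SE) in non-SP cells. With arrays centred on their medians it was -0.02 and 0.10, so its sign in non-SP cells turns with the scaling.

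Axin2 was lower in the SP array than in the non-SP array of all 6 cultures. The share of all genes with this pattern was not counted, and 388 of 18194 genes had an unadjusted p under 0.05 (limma) in this comparison. The Axin2 differences were -0.37, -0.33 and -0.06 with anti-EpCAM and -0.05, -0.02 and -0.18 without treatment. Their mean was -0.17 ± 0.07 (SE), with a 95% interval from -0.33 to -0.01, an unadjusted p of 0.0424 and an adjusted p of 0.950 (limma), so it did not pass. With anti-EpCAM all 3 SP arrays lay below all 3 non-SP arrays, as was the case for 1.78% of all genes. The second Axin2 probe set, with a mean of 3.80, gave a mean of -0.03 within cultures. It was higher in all treated non-SP arrays by 0.51 ± 0.19 (SE), a separation found in 1.19% of all genes by their lead probe sets. The 2 Axin2 probe sets correlated at 0.17.

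Nkd1, which binds Dishevelled and dampens the signal, read 6.11, 5.93 and 6.15 in SP cells with anti-EpCAM and 6.62, 6.03 and 6.31 in SP cells without treatment. Non-SP cells gave 6.36, 6.47 and 6.07 with anti-EpCAM and 6.42, 6.12 and 6.46 without treatment. The groups overlapped, with an antibody difference of -0.25 ± 0.19 (SE) in SP and -0.04 ± 0.19 (SE) in non-SP cells. A dimmer Nkd1 probe set with a mean of 5.06 was lower in all treated SP arrays, by -0.41 ± 0.19 (SE). That separation was seen in 8.04% of all genes by their lead probe sets. Another Nkd1 probe set, with a mean of 4.53, read 5.20 and 5.38 in both arrays of treated replicate 2 and at most 4.89 elsewhere. Both of these arrays lay above all others for 3.12% of all genes by their lead probe sets.

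Sox9 and Ccnd1, a transcription factor gene and the cyclin D1 gene, showed no separation between treated and untreated arrays. Sox9 read 9.26, 9.45 and 9.49 in SP cells with anti-EpCAM and 9.66, 9.44 and 9.08 in SP cells without treatment. In non-SP cells it read 9.30, 8.90 and 9.47 with anti-EpCAM and 9.62, 9.40 and 9.01 without treatment. The antibody difference was 0.00 ± 0.21 (SE) in SP and -0.12 ± 0.21 (SE) in non-SP cells. Ccnd1 read 12.71, 12.52 and 12.59 in SP cells with anti-EpCAM and 12.81, 12.44 and 12.78 in SP cells without treatment. The non-SP readings were 12.84, 12.93 and 12.51 with anti-EpCAM and 12.80, 12.45 and 12.81 without treatment. Its antibody difference was -0.07 ± 0.17 (SE) in SP and 0.07 ± 0.17 (SE) in non-SP cells, of opposite sign and within the error. The other Ccnd1 probe sets, with means of 12.63 and 9.73, had the reverse signs, at 0.13 and 0.11 in SP and -0.05 and -0.10 in non-SP cells. They correlated with the lead at only 0.15 and -0.04. The other Sox9 probe sets, with means of 9.32 and 4.31, differed by -0.24 and 0.02 in SP and by -0.20 and 0.03 in non-SP cells, and followed the lead at 0.80 and 0.39.

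Across the 9 lead probe sets, 7 were lower in treated SP cells and 8 in treated non-SP cells, but with arrays centred on their medians 4 were lower in each fraction, and with arrays quantile normalised again 6 and 4. Relative to the median of all genes, 4 of 9 were lower in SP and 5 of 9 in non-SP cells. Their median difference was -0.10 in SP cells, against -0.12 for all genes, and -0.12 in non-SP cells, against -0.10 for all genes. Of the 9 lead probe sets, 1 separated treated from untreated arrays in each fraction, which was Lef1, chosen on this contrast, and treated arrays were likewise all lower for 8.04% of all genes in SP and 6.62% in non-SP cells. Over all 25 probe sets, 3 were lower in every treated array in SP cells, against 8.04% of all genes by their lead probe sets. In non-SP cells 2 were lower and 2 were higher in every treated array, against 6.62% and 1.19% of all genes. These shares also count lead probe sets only, and no share over all probe sets was computed. The member probe sets that separated were among the dimmer ones, with means between 3.75 and 5.11.

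**Figure D3:**
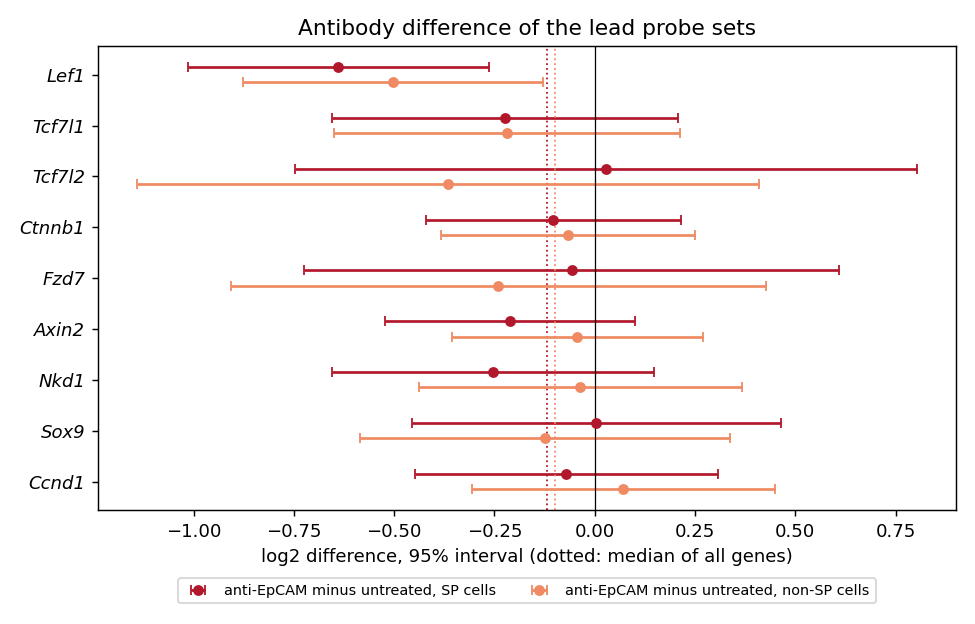
Anti-EpCAM minus untreated (log2, x axis) for the lead probe set of each member in SP and non-SP cells, with 95% intervals from limma over 12 arrays; dotted lines are the median of all genes, -0.12 in SP and -0.10 in non-SP cells. Lef1 lies at -0.64 and -0.50, and the other 8 members lie between -0.37 and 0.07 with intervals that include 0.

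**Figure D4:**
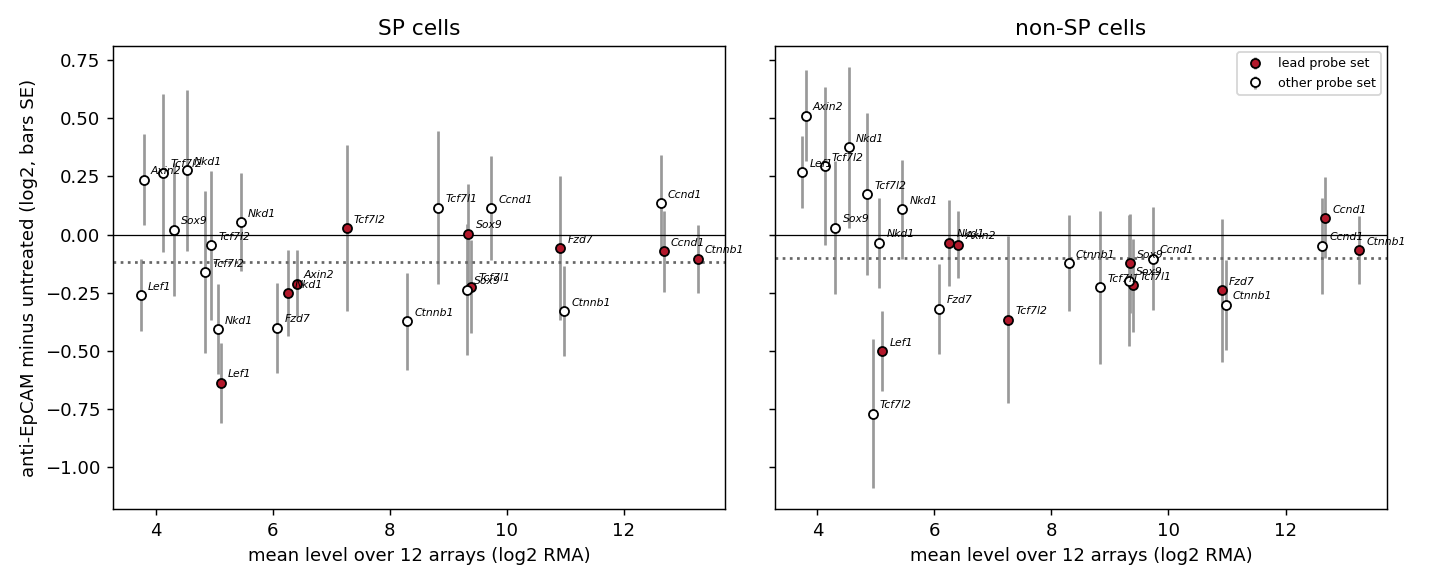
Anti-EpCAM minus untreated (log2, y axis, bars ± SE) for all 25 probe sets against their mean level over 12 arrays (log2 RMA signal, x axis), in SP cells (left) and non-SP cells (right); filled points are lead probe sets and dotted lines the median of all genes. Probe sets of one gene spread widest at low signal, with Lef1 at -0.50 and 0.27 and Axin2 at -0.04 and 0.51 in non-SP cells.

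Between fractions the members moved little. The means of SP minus non-SP over the 6 cultures ran from -0.17 for Axin2 to 0.12 for Sox9, with adjusted p-values of at least 0.950 (limma). Nkd1 averaged -0.12, with 4 of 6 cultures lower in SP cells, and Ccnd1 -0.08, also with 4 of 6 lower. Sox9 was higher in SP cells in 5 of 6 cultures, and its mean of 0.12 drew on 1 culture, treated replicate 2, at 0.55, without which it was 0.02. Ctnnb1 at 0.02, Tcf7l2 at 0.03, Fzd7 at 0.01 and Tcf7l1 at -0.04 lay near 0. The interval for Ctnnb1 ran from -0.12 to 0.16 and that for Tcf7l2 from -0.14 to 0.21, and smaller differences could not be resolved with these arrays.

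**Figure D5:**
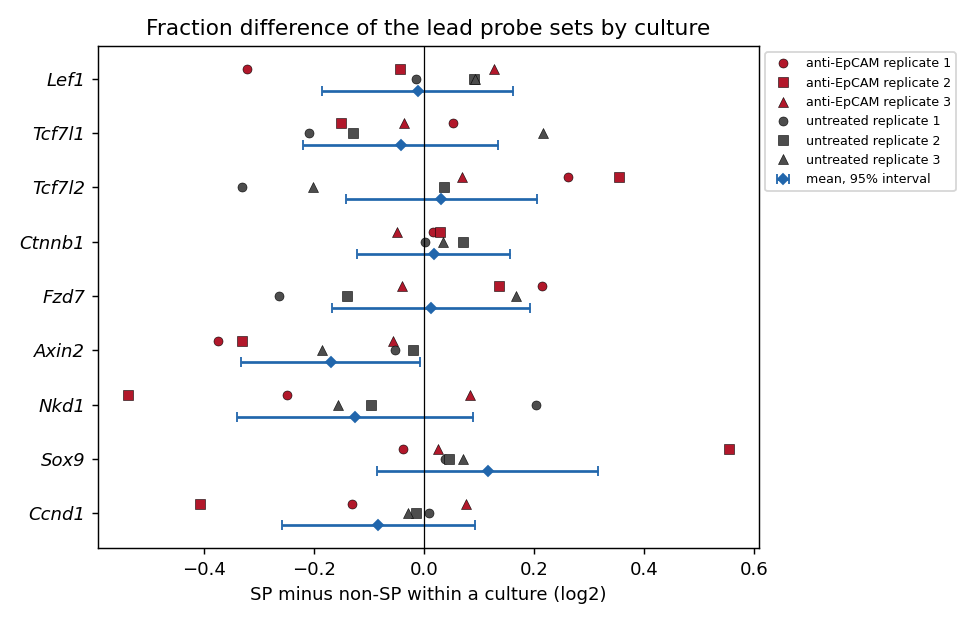
SP minus non-SP (log2, x axis) of the lead probe set of each member within each of 6 cultures, with red points for anti-EpCAM and grey points for untreated cells, and the mean with its 95% interval in blue. Axin2 is lower in the SP array of all 6 cultures, with a mean of -0.17 and an adjusted p of 0.950 (limma). The other 8 members have cultures on both sides of 0. The share of all genes lower in all 6 cultures was not counted.

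The other genes of the pathway, 87 in number and all measured, were taken from lists by role. None was called in any comparison. In treated SP cells 44 of the 87 lay below the median of all genes, and in treated non-SP cells 47, with list medians of -0.13 and -0.12. The 21 genes of Wnt ligands and their secretion were the most one-sided in SP cells, with 17 of them lower than the all-gene median and a list median of -0.28. In non-SP cells 14 of the 21 lay below, with a list median of -0.18. Mean signals in this list ran from 3.13 for Wnt3 to 11.2 for Wls, and the part of signal level or array scaling was not tested. Wls, which carries Wnt proteins to the cell surface, differed by -0.29 ± 0.22 (SE) in SP and -0.21 ± 0.22 (SE) in non-SP cells.

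Receptors and the R-spondin system, with 23 genes, had 9 below the median of all genes in SP and 12 in non-SP cells. Ryk, a receptor for Wnt proteins, differed by -0.22 ± 0.20 (SE) and -0.12 ± 0.20 (SE). Of 12 secreted inhibitors 6 lay below in SP and 4 in non-SP cells, and Sfrp1, which binds Wnt proteins outside the cell, differed by -0.21 ± 0.31 (SE) and -0.24 ± 0.31 (SE). Of 11 genes of the destruction complex and transducers 6 lay below in each fraction, and the kinase gene Csnk1a1, whose product primes beta-catenin for removal, differed by -0.06 and 0.04. The 10 nuclear cofactors went to opposite sides, with 2 below the median of all genes in SP and 8 in non-SP cells, and the co-repressor gene Tle3 differed by -0.03 and -0.13. Of 10 other targets 4 lay below in SP and 3 in non-SP cells, and Cd44 differed by -0.03 and 0.01.

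Of EpCAM and its signalling partners 4 of 5 genes were measured. Epcam itself, the antibody's target, differed between treated and untreated cells by -0.17 ± 0.18 (SE) in SP and -0.13 ± 0.18 (SE) in non-SP cells. Adam17, whose product cuts the outer part of EpCAM, differed by -0.14 ± 0.14 (SE) and -0.10 ± 0.14 (SE), and Psen2, which belongs to the protease that releases the intracellular part, by 0.34 ± 0.37 (SE) and -0.11 ± 0.37 (SE). Fhl2, whose product joins that part to beta-catenin, differed by -0.08 and -0.05. Each of these differences was within or near its standard error.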

How the data were processed

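Biotin-labelled cRNA made from 200 ng of total RNA was hybridised to Affymetrix mouse arrays, per the labels' protocols. The deposited values are log2 signals, which the authors summarised by RMA per the submitters' processing notes; the sources used here give neither its version nor any further scaling. Of 45101 probe sets, the platform annotation gave 34958 a single symbol, 932 several and 9211 none. The lead probe sets of 18194 genes were tested with limma 3.58.1 (R 4.3.3) by lmFit and eBayes over 4 group means with 8 residual degrees of freedom. Tests were two-sided, p-values of lead probe sets were adjusted by Benjamini-Hochberg over all genes with a threshold of 0.05, and no filter on level was used. The members' other probe sets were fitted in the same way together with all probe sets that are not controls, and adjusted over these. Figures used Python 3.11.15 and matplotlib 3.10.9. The fits were tested on simulated data.

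Within a treatment, the deviations from group means of same-numbered arrays of both fractions correlated at 0.55 to 0.84, so such arrays were called a culture, which the labels do not state, and 2 further fits used their means and differences. Those of treated and untreated arrays of one number correlated at -0.38 to -0.01 and were not paired. Members, gene lists and named genes were chosen with earlier results of these data known. Named in addition are the 5 genes most like and 3 least like Lef1 over 12 arrays and, for each role, the gene with the highest mean level. Alternatives were 2 other array scalings, a minimum mean level of 6, a variance trend, the mean of all probe sets, a replicate block, each array left out, and both arrays of treated replicate 2 left out. Probe-level files were not used here.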

Additional observations from a re-analysis of the deposited data

How the results depend on the processing

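The count of genes called was 0 in all 7 comparisons and in all 92 recomputed counts. With the replicate block it was 0 as well, with 1158, 930, 1311, 305 and 1003 genes at an unadjusted p under 0.05 for the antibody in SP, the antibody in non-SP, SP against non-SP with antibody, SP against non-SP untreated and the interaction, so the block changed no call. Of 702 recomputed member differences, 573 kept their sign and 129 changed it, and 27 moved by more than 1 SD. The Lef1 lead difference in SP cells was -0.44 with centred arrays and -0.41 with arrays quantile normalised again, and between -0.74 and -0.57 with 1 array left out. In non-SP cells it was -0.36, -0.38 and between -0.59 and -0.34. The mean of its probe sets gave -0.45 and -0.12. The cause of these shifts was not tested. Axin2 within cultures stayed between -0.22 and -0.10 in all alternatives, with an adjusted p between 0.237 and 1.00. The number of arrays, 3 per group, limits the precision. The standard error of the antibody difference in SP cells ran from 0.14 for Axin2 to 0.36 for Tcf7l2.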
